A study of Arabidopsis thaliana with 17 samples.

Results

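The CHR genes of Arabidopsis thaliana encode chromatin remodelling ATPases, enzymes of the Snf2 family. All probe sets that name 1 gene with the symbol CHR and a number were taken, whatever the case of the letters, and the annotation writes chr31 in lower case. This gave 9 probe sets for 8 genes, out of 22746 probe sets tested, of which 13513 name 1 gene and cover 13350 genes. The members are CHR17 (AT5G18620), CHR18 (AT1G48310), CHR23 (AT5G19310), CHR24 (AT5G63950), chr31 (AT1G05490, with 2 probe sets), CHR34 (AT2G21450), CHR40 (AT3G24340) and CHR42 (AT5G20420). The files name no genome build, so the genes are placed by their locus names only.

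RNA was measured on Affymetrix ATH1 arrays in seeds of Ws-0 plants, aged 38 to 46 days, at the globular stage, when the embryo measured 24 to 32 µm across. Laser microdissection of fixed, paraffin-embedded sections gave 7 compartments: embryo proper, suspensor, micropylar endosperm, peripheral endosperm, chalazal endosperm, chalazal seed coat and general seed coat. Whole seeds were captured in the same way as an eighth group. Each group had 2 arrays, called biological replicates in the labels, and chalazal endosperm had 3, which makes 17 arrays. The labels name no mutation and no treatment in any group, and all RNA was amplified before hybridisation. The labels do not tie captures to plants, and the p-values reflect the spread among these arrays alone, which may be technical.

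Snf2 ATPases use ATP to slide, evict or exchange nucleosomes, which opens or closes DNA for other proteins. Plants hold SWI/SNF and ISWI types, which work on nucleosomes in large complexes, and a plant branch, the CLASSY and DRD1 proteins, that serves RNA-directed DNA methylation. In that pathway CLASSY proteins guide RNA polymerase IV to its loci, where the precursors of small RNAs are made, and DRD1 helps polymerase V to transcribe the targets that are then methylated. Endosperm DNA is known for lower methylation than embryo DNA.

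Values are array intensities ± SD, scaled by the authors to a common mean. An array's background limit was its highest intensity among 27 bacterial control probe sets, and lay between 49.2 and 144. Differences are on the log2(intensity + 31) scale ± SE, and a probe set is called where limma's p, adjusted over all probe sets, is under 0.05. Folds are ratios of geometric means, and "at least" marks a dimmer side not above background on every array. Between 44.5% and 66.0% of probe sets per array exceeded the limit, and 4 to 8 of the 9 CHR probe sets did. The number of arrays limits the precision. Pearson's r over probe sets, which are not replicates, was 0.864 to 0.939 within groups and 0.529 to 0.872 between them. The 3' to 5' signal ratio of the control GAPDH, a sign of RNA integrity, was 18.2 ± 8.68 in chalazal endosperm (n = 3) and 16.8 ± 8.34 in micropylar endosperm (n = 2). It was lower in whole seed, at 2.99 ± 0.145 (n = 2), and between 5.30 and 12.4 as a mean in the other groups. Summed over each list, markers of endosperm, seed coat and chalazal seed coat were highest in the tissue of that name. In chalazal endosperm this sum came mainly from AGL40 (mean 9434) and AGL62 (4863). There IKU2 (5.74 ± 1.76, n = 3) was not above background, and MPC (191 ± 116) was no higher than in general seed coat (214 ± 15.7, n = 2). The 4 embryo markers summed to 3350 to 4912 in embryo proper and 1082 to 1903 in suspensor, but also to 1365 to 2934 in general seed coat, and one of them, YAB3, exceeded background on no array. INO, one of 3 seed coat markers, was not above background in chalazal seed coat. Neither of 2 suspensor markers was measured here, so that label was not checked. In tissue captures, fewer cells of a type and less RNA per cell cannot be told apart.

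Of the 9 CHR probe sets, 8 differed among the 7 compartments (limma's F test), those of every gene but CHR18. The same call was made for 54.1% of all probe sets. The compartment means of the CHR probe sets spanned a median of 3.87 on the log2 scale, beside 2.08 over all probe sets. CHR17 and CHR23 exceeded background on every array, whereas CHR42 did so on 3 of 17. Against all 6 other compartments at once, CHR17 was called in embryo proper, CHR23 in chalazal endosperm and CHR42 in peripheral endosperm, 3 of 9 CHR probe sets beside 11.0% of all. This lead test took each probe set's compartment of highest mean on these same arrays and tested it one-sided. The tested values thus set the direction, and the p-values are smaller than two-sided ones. These 3 leads over the next compartment were 1.14 for CHR17, 1.13 for CHR23 and 1.72 for CHR42 on the log2 scale, with adjusted p of 0.0455, 0.0242 and 0.0454. They were thin: with 1 array left out the count ranged from 0 to 3, and 0 remained without embryo proper replicate 2.

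**Figure D1:**
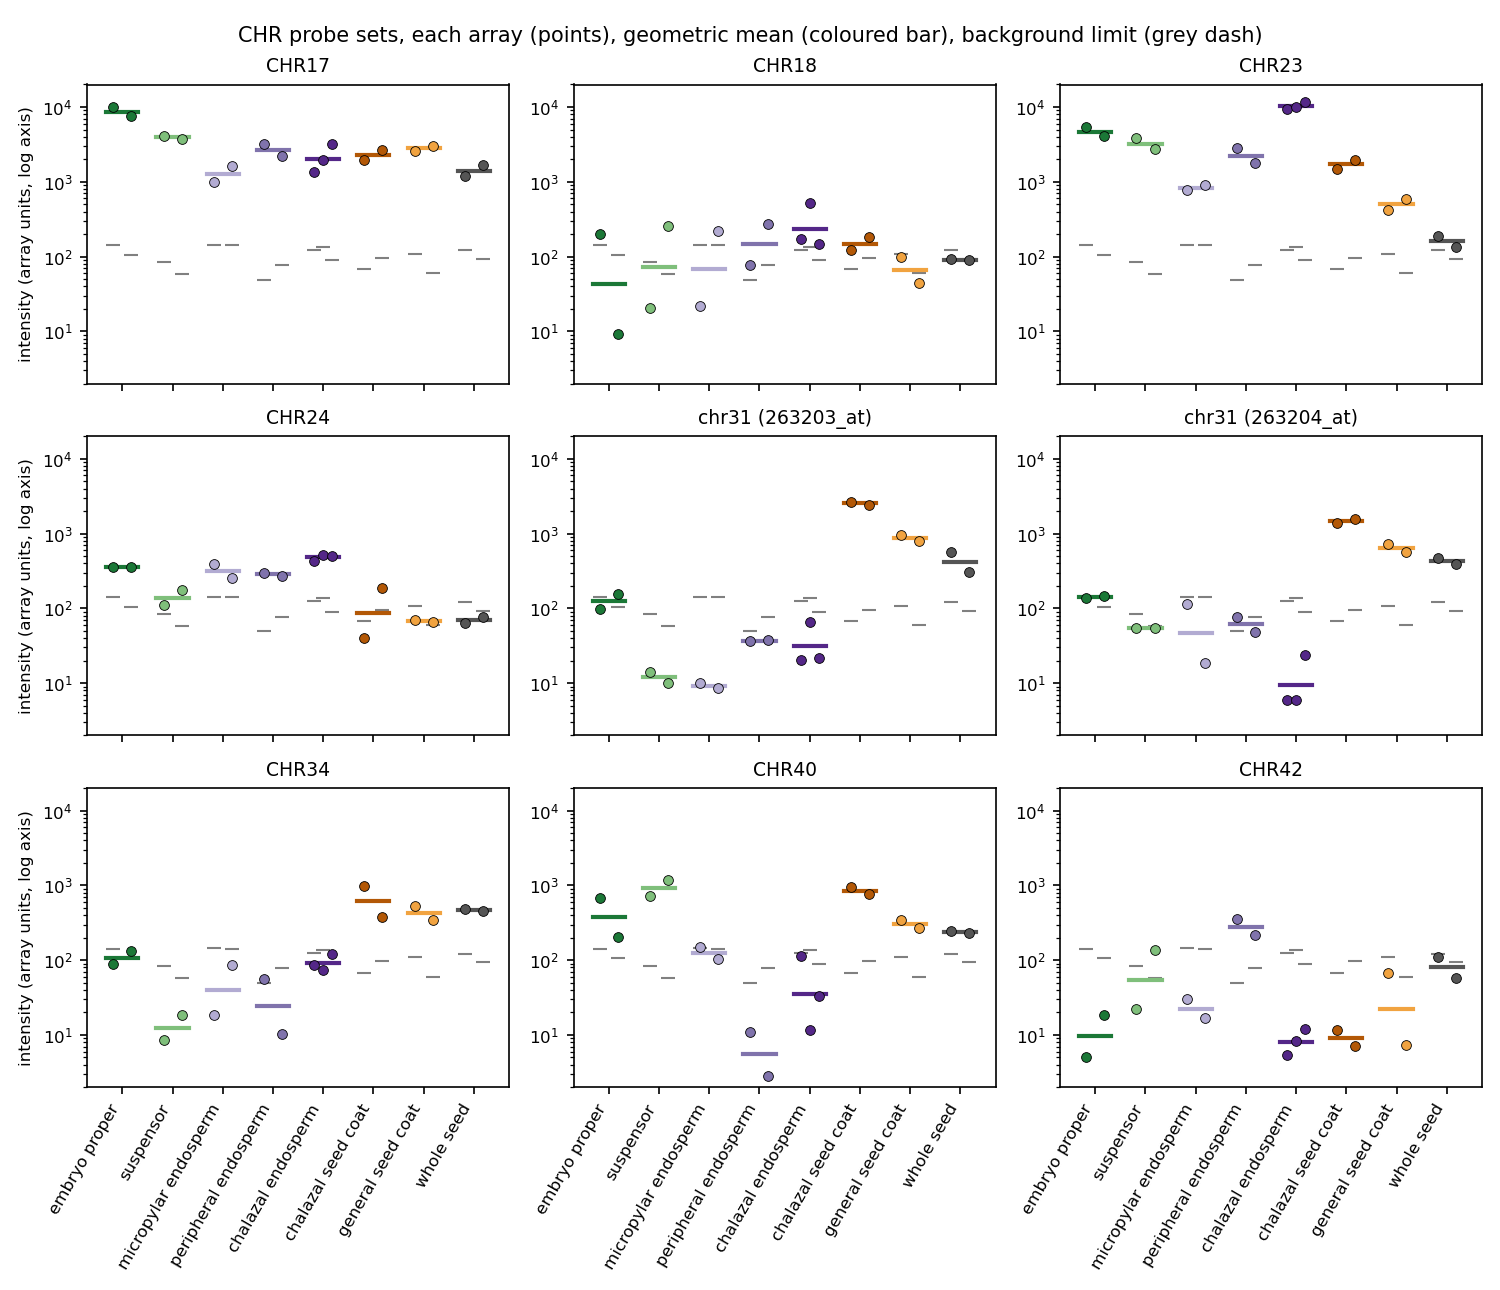
Intensity (log axis) of each CHR probe set on each of the 17 arrays, by group. Points are arrays, coloured bars are geometric means and grey dashes are the background limits of the same arrays. CHR23 is highest on the 3 chalazal endosperm arrays (9415 to 11637), and chr31 on the chalazal seed coat arrays (2395 and 2682 for 263203_at).

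CHR23 is a SWI/SNF ATPase which, with its close copy CHR12, is known for keeping the stem cells of the embryo and root. Its intensity was 9415, 9987 and 11637 on the 3 chalazal endosperm arrays. It was 5417 and 4057 in embryo proper and 3802 and 2747 in suspensor. The chalazal endosperm arrays lay above all others, and embryo proper lay above suspensor without overlap. The remaining endosperm gave 2808 and 1779 in the peripheral part and 786 and 893 in the micropylar part. In seed coat the chalazal part gave 1504 and 1958, and the general part 422 and 596. Peripheral endosperm overlapped suspensor above it and chalazal seed coat below it, and no other neighbours in the order of means overlapped.

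CHR23 was thus spread unevenly within the endosperm as well as between tissues. The chalazal part exceeded the mean of the other endosperm parts by 2.88 ± 0.30 on the log2 scale, or 7.53-fold (adjusted p 1.97e-08). The micropylar part was lower than the peripheral part by 2.67-fold (difference -1.38 ± 0.39, adjusted p 0.0182), but this call was lost without micropylar replicate 1 (adjusted p 0.0966) or peripheral replicate 1 (0.178), and with only the arrays of the comparison (0.102). Chalazal seed coat exceeded general seed coat by 1.71 ± 0.39, or 3.42-fold (adjusted p 0.00542). That call was lost without chalazal seed coat replicate 2 (adjusted p 0.0954) or general seed coat replicate 1 (0.103). The lead of chalazal endosperm over embryo proper was lost without embryo proper replicate 2 (adjusted p 0.166) or chalazal endosperm replicate 3 (0.0614), and with no offset (0.0535) or quantile normalization (0.0672). The high GAPDH ratios of 18.2 and 16.8 stand beside the highest CHR23 level, in chalazal endosperm, and one of the lower levels, in micropylar endosperm. The part of RNA integrity in the CHR23 levels was not tested. The summed intensity of 4 endosperm markers was 655 to 1626 in chalazal seed coat, 402 to 918 in general seed coat and 11686 to 19325 in chalazal endosperm, and their part in the seed coat difference was not tested.

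CHR17 is an ISWI-type ATPase, which spaces nucleosomes and acts together with its close copy CHR11. It read 9911 and 7587 in embryo proper, 4156 and 3681 in suspensor, and 2573 and 3055 in general seed coat. These 3 groups stood in that order without overlap. In the endosperm it read 3165 and 2189 in the peripheral part, 995 and 1627 in the micropylar part, and 1349.7, 1926 and 3195 in the chalazal part. Chalazal seed coat gave 1981 and 2629, and each of these lower groups overlapped its neighbour in the order of means. CHR17 exceeded background in every compartment.

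CHR17 was higher in the embryo, taken as embryo proper and suspensor together, than in the endosperm by 1.60 ± 0.26, or 3.08-fold (adjusted p 2.25e-05). It was higher in the embryo than in the seed coat by 1.19 ± 0.29, or 2.30-fold (adjusted p 0.00269). Embryo proper minus suspensor was 1.14 ± 0.41 in the direct comparison, which did not pass (adjusted p 0.0665), although the one-sided test of the lead did. Both rest on the same difference, with limma's unadjusted p at 0.00963 two-sided and 0.00481 one-sided. The lead was lost when any of 10 arrays was left out, both arrays each of embryo proper, suspensor, chalazal seed coat, general seed coat and whole seed, with adjusted p between 0.0544 and 0.203, and with no offset (0.0936) or quantile normalization (0.078). Whether the probes of CHR17 or CHR23 also read their close copies CHR11 and CHR12 was not tested.

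chr31 encodes CLASSY3, one of the proteins that guide polymerase IV, known for its work in ovules and in the tapetum of anthers. Its probe set 263203_at read 2682 and 2395 in chalazal seed coat and 964 and 794 in general seed coat. In embryo proper it read 98.5 and 157, of which the second exceeded background. It was not above background on any array of suspensor or endosperm, where it lay between 8.48 and 65.6. The seed coat arrays thus lay above all embryo and endosperm arrays, and the chalazal part above the general part.

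The second probe set of chr31, 263204_at, gave the same order at the top, with 1402 and 1572 in chalazal seed coat and 721 and 576 in general seed coat. Embryo proper followed at 136 and 149, and the suspensor and endosperm arrays lay between 5.93 and 115. Only the array at 76.6 in peripheral endosperm exceeded its limit among these. Over the 17 arrays the log2 values of the pair correlated at r = 0.936, and over the 7 compartment means at 0.963. Both measure 1 gene on shared arrays, so this describes the probe sets and not further samples.

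**Figure D2:**
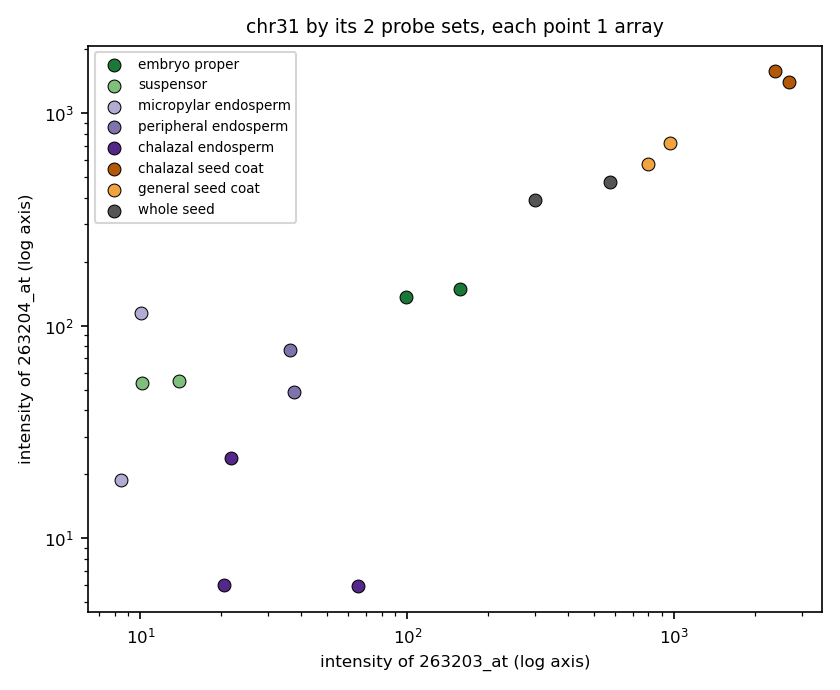
Intensity of chr31 by its 2 probe sets, both on log axes, with each point 1 array coloured by group. The chalazal seed coat arrays lie at the upper right, followed by general seed coat and whole seed, and embryo proper lies between these and the remaining arrays.

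chr31 was lower in the embryo than in the seed coat by at least 14.6-fold for 263203_at (difference -4.22 ± 0.43, adjusted p 1.86e-08) and at least 9.73-fold for 263204_at (-3.06 ± 0.44, adjusted p 4.86e-06). It was lower in the endosperm than in the seed coat by at least 14.8-fold (-4.77 ± 0.38, adjusted p 1.47e-10) and at least 9.05-fold (-3.87 ± 0.39, adjusted p 8.03e-09). The chalazal excess over general seed coat was 2.90-fold and 2.30-fold and did not pass in either probe set (adjusted p 0.165 and 0.35). Embryo proper minus suspensor was 1.86 ± 0.61 for 263203_at (adjusted p 0.0401), where only 1 of these 4 arrays exceeded background, so no fold is given. It was not called for 263204_at (1.02 ± 0.62, adjusted p 0.345). The call of chr31 in embryo proper over suspensor was lost when any of 9 arrays was left out, both arrays each of embryo proper, suspensor and the 2 seed coat parts and whole seed replicate 1 (adjusted p 0.0503 to 0.231). The summed intensity of 3 seed coat markers was 108 to 134 in embryo proper and 870 to 891 in suspensor, and its part in this difference was not tested.

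CHR34 is a close relative of DRD1. It read 978 and 384 in chalazal seed coat and 524 and 347 in general seed coat, which overlapped. In embryo proper it read 88.5 and 132, of which the second exceeded background. In suspensor and endosperm it read between 8.50 and 121, and only 1 array of peripheral and 1 of chalazal endosperm exceeded background. The seed coat arrays again lay above all those of embryo and endosperm.

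CHR34 was lower in the embryo than in the seed coat by at least 5.24-fold (difference -2.79 ± 0.46, adjusted p 3.8e-05). It was lower in the endosperm than in the seed coat by at least 4.81-fold (-2.72 ± 0.41, adjusted p 6.53e-06). The difference between the 2 seed coat parts, 0.50 ± 0.65, did not pass (adjusted p 0.808), with an SE that leaves room for differences in either direction. The compartment means of CHR34 correlated with those of chr31 at r = 0.958 (263203_at) and 0.879 (263204_at), a description over 7 points that share arrays. The 3 seed coat markers summed to 19793 to 22418 in chalazal and 38026 to 41201 in general seed coat, and to 108 to 2518 in the other compartments. The part of seed coat content in these results was not tested.

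CHR40 encodes CLASSY4, another of the polymerase IV guides. It read 731 and 1198 in suspensor and 947 and 773 in chalazal seed coat. It read 689.6 and 203 in embryo proper and 346 and 267 in general seed coat. Each of these pairs overlapped, and the first pair lay above the second on every array. In endosperm 1 array exceeded background, micropylar replicate 1 at 148, and the other 6 lay between 2.85 and 115.

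CHR40 was higher in the embryo than in the endosperm by at least 5.87-fold (3.06 ± 0.41, adjusted p 1.56e-06). It was lower in the endosperm than in the seed coat by at least 5.05-fold (-2.85 ± 0.41, adjusted p 2.84e-06). Embryo minus seed coat was 0.21 ± 0.46 and did not pass (adjusted p 0.812). Embryo proper minus suspensor was -1.24 ± 0.65 and did not pass (adjusted p 0.254). Micropylar minus peripheral endosperm was 2.05 ± 0.65 (adjusted p 0.0338), with no fold given, since only 1 of these 4 arrays exceeded background. The call of CHR40 was lost without any 1 of the 4 arrays (adjusted p 0.0624 to 0.17), and with 4 times the offset, array weights or only the arrays of the comparison (0.0684 to 0.167). The seed coat markers summed to 1607 to 2518 in micropylar and 1287 to 1574 in peripheral endosperm, and their part in this difference was not tested.

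CHR42 encodes CLASSY2. It read 355 and 220.1 in peripheral endosperm, the only compartment where both arrays exceeded background. Suspensor gave 22.2 and 137, of which the second exceeded background. All other compartment arrays lay between 5.15 and 67.4 and were not above background. Peripheral endosperm did not overlap any other compartment.

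CHR42 was lower in micropylar than in peripheral endosperm by at least 1.95-fold (difference -2.53 ± 0.62, adjusted p 0.00576), a call lost without peripheral replicate 1 (adjusted p 0.0633), with no offset (0.109) or with only the arrays of the comparison (0.107). Chalazal endosperm was lower than the mean of the other endosperm parts by 1.72 on the log2 scale (SE 0.47, adjusted p 0.00666), with no fold given, since only 2 of the 4 arrays of the other parts and 0 of the 3 chalazal arrays exceeded background. The lead of CHR42 in peripheral endosperm over all other compartments was lost with no offset (adjusted p 0.341) and when any of 12 arrays was left out (0.0504 to 0.384). These arrays were both arrays each of embryo proper, micropylar and peripheral endosperm and chalazal seed coat, suspensor replicate 1, chalazal endosperm replicate 3, general seed coat replicate 2 and whole seed replicate 2. The 4 endosperm markers summed to 9555 to 11037 in peripheral and 2050 to 2287 in micropylar endosperm, and whether their difference bears on CHR42 was not tested.

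The 3 CLASSY genes measured thus gave different patterns across the compartments. chr31 read highest in chalazal seed coat, CHR40 in suspensor and chalazal seed coat, and CHR42 in peripheral endosperm. Over the 7 compartment means CHR40 correlated with CHR42 at -0.475 and with the 2 chr31 probe sets at 0.468 and 0.572. chr31 correlated with CHR42 at -0.351 and -0.267. In chalazal endosperm none of the 3 genes exceeded background on any of the 3 arrays.

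CHR24 is listed in RefSeq under the further names ERCC6 and RAD26, those of human and yeast repair helicases. It read 430.0, 520.5 and 504 in chalazal endosperm and 363 and 356 in embryo proper. Micropylar endosperm gave 389 and 252, peripheral endosperm 298 and 271, and suspensor 111 and 174. Chalazal endosperm, embryo proper, and suspensor did not overlap one another, and all arrays of these 5 compartments exceeded background. In seed coat it read 40.1 and 188 in the chalazal part and 70.3 and 64.9 in the general part, where 1 array of each exceeded background.

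CHR24 was higher in the endosperm than in the seed coat by at least 3.59-fold (1.78 ± 0.38, adjusted p 0.000462). It was higher in the embryo than in the seed coat by at least 2.29-fold (1.22 ± 0.42, adjusted p 0.0359). This last call was lost when any of 7 arrays was left out, both of embryo proper, suspensor and general seed coat and chalazal seed coat replicate 1 (adjusted p 0.0517 to 0.238), and with no offset or only the arrays of the comparison (0.0517 to 0.0546). Embryo minus endosperm was -0.57 ± 0.38 and did not pass (adjusted p 0.304).

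CHR18 was the one gene with no difference called among compartments (range of means 1.50 on the log2 scale, adjusted p 0.546). Its arrays disagreed within groups, with 198 and 9.13 in embryo proper, 20.2 and 253 in suspensor, and 21.5 and 222 in micropylar endosperm. Peripheral endosperm gave 77.3 and 272, and chalazal endosperm 172, 521 and 146. In seed coat it read 121 and 182 in the chalazal part and 98.6 and 44.0 in the general part. All arrays exceeded background only in peripheral endosperm, chalazal endosperm and chalazal seed coat, and neighbouring groups overlapped throughout.

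Of the 3 comparisons between tissues, 2 involve the seed coat, and most CHR calls fell in these. Over all probe sets these 2 gave 5396 and 7207 calls, and embryo against endosperm gave 6014. In embryo against seed coat 6 of 9 CHR probe sets were called, 3 higher and 3 lower, beside 23.7% of all probe sets. In endosperm against seed coat 6 were called, 2 higher and 4 lower, beside 31.7%. Each count of 6 covers 5 genes, since both chr31 probe sets were among those called lower. In embryo against endosperm 2 were called, both higher in the embryo, beside 26.4%. As tissue means, CHR23 and CHR24 were lower in the seed coat than in either inner tissue, and chr31 and CHR34 were higher there than in either. For CHR23 the endosperm and seed coat arrays overlapped, and chalazal seed coat (1504 and 1958) lay above micropylar endosperm (786 and 893). The median difference of the 9 was 0.21 on the log2 scale for embryo minus seed coat, -0.41 for endosperm minus seed coat and 0.52 for embryo minus endosperm, beside -0.10, -0.06 and -0.03 over all probe sets. For CHR23 embryo minus endosperm was 0.52 ± 0.25 and did not pass (adjusted p 0.13).

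Within tissues, 1 to 3 CHR probe sets were called per comparison. In embryo proper against suspensor 1 of 9 was called, higher in embryo proper, beside 13.1% of all probe sets. In chalazal against other endosperm 2 were called, 1 in each direction, beside 26.3%. In micropylar against peripheral endosperm 3 were called, 1 higher and 2 lower, beside 13.4%, and 0 of these were called without peripheral replicate 1 and 1 without micropylar replicate 1. In chalazal against general seed coat 1 was called beside 6.98%, and 0 without chalazal seed coat replicate 2 or general seed coat replicate 1. In embryo proper against suspensor the count lay between 0 and 2 with 1 array left out.

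**Figure D3:**
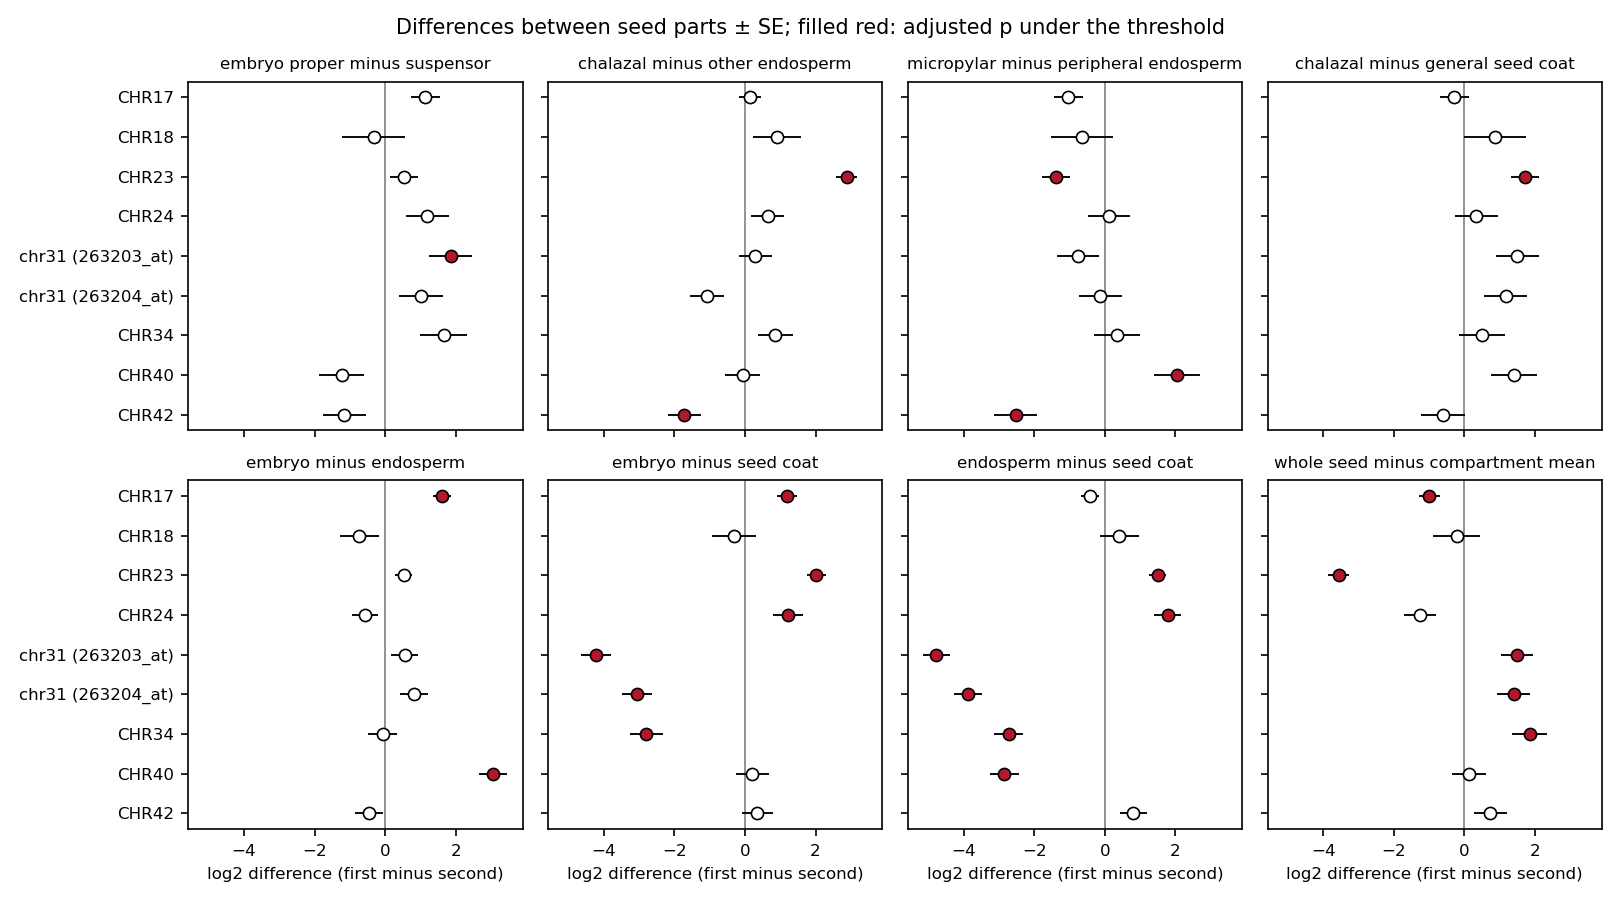
Log2 differences (first minus second group named above each panel) of the 9 CHR probe sets, with bars for the SE. Filled red points passed the threshold after adjustment over all probe sets. In the panels against seed coat, CHR23 and CHR24 lie to the right and chr31 and CHR34 to the left.

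Whole seeds, captured from the same stage, hold all compartments at once. CHR23 read 190.1 and 134 there, below each of the 15 compartment arrays, the lowest of which read 422. It was lower in whole seed than in the mean of the compartments by 13.8-fold (difference -3.56 ± 0.30, adjusted p 4.99e-09). Both whole seed arrays lay below all compartment arrays for 1.93% of all probe sets, and CHR23 was the 1 CHR probe set among them. Among 4182 probe sets that exceeded the highest background limit on all compartment arrays, as CHR23 did, the share was 8.25%. On a shared scale a mixture of these compartments would lie within their range, and why CHR23 did not was not tested. The GAPDH ratio was lowest in whole seed, at 2.99 beside group means of 5.30 to 18.2, and its part in the CHR23 value was not tested. The sample numbers of the whole seed arrays lie apart from the unbroken run of the 15 compartment arrays. Whether both sets were processed together was not tested, so tissue and set cannot be told apart here.

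With CHR23 counted, 5 of 9 CHR probe sets were called in whole seed, beside 13.0% of all probe sets. These were 3 higher and 2 lower, from 4 genes, with chr31 called by both its probe sets. With quantile normalization or a common 75th percentile the split was 1 higher and 3 lower, as both chr31 calls were lost and 1 further probe set was called lower. CHR17 read 1190.4 and 1676 and was 2.01-fold lower than the compartment mean (-0.99 ± 0.31, adjusted p 0.0308). The seed coat genes chr31 (576 and 302 for 263203_at, 474 and 391 for 263204_at) and CHR34 (484 and 459) were higher than the compartment mean, by at least 1.91, 2.17 and 2.90-fold. Their differences were 1.49 ± 0.46, 1.40 ± 0.47 and 1.85 ± 0.49 (adjusted p 0.0282, 0.045 and 0.0107). The whole seed arrays of chr31 and CHR34 lay within the range of the compartment arrays, and 0 CHR probe sets lay above all of them. The 3 seed coat markers summed to 14339 to 14934 in whole seed, nearer the seed coat parts than the other compartments, and their part in these calls was not tested.

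In whole seed CHR40 read 243 and 228, both above background, and CHR24 read 63.2 and 76.4, CHR18 91.5 and 89.5, and CHR42 111 and 58.4, none above background. None of these 4 differed from the compartment mean with a call. Without whole seed replicate 1 or replicate 2 the count of 5 fell to 1, CHR23. The adjusted p of CHR17 was then 0.475 and 0.108, that of CHR34 0.178 and 0.136, and those of chr31 lay between 0.0839 and 0.514 for 263203_at. The call of 263204_at in chr31 was lost without any of 11 arrays (adjusted p 0.052 to 0.401), both arrays each of embryo proper, suspensor, the 2 seed coat parts and whole seed, and peripheral endosperm replicate 2.

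Other genes of the remodelling machinery were measured in part, since many have no probe set here that names them alone. Of 15 Snf2 ATPases under other symbols 4 were measured, and 2 of these differed among compartments, INO80 and ATRX, beside 54.1% of all probe sets. INO80, the ATPase of the complex of that name, was 738 ± 350.4 in embryo proper and 3033 ± 683 in micropylar endosperm (SD, n = 2 each), and was lower in the embryo than in the endosperm (-1.18 ± 0.27, adjusted p 0.00143). ATRX, which has CHR20 as a synonym and is a helper of histone H3.3 deposition, went the other way, with 2352 ± 883 in embryo proper and 436 ± 9.42 in micropylar endosperm (1.27 ± 0.29 for embryo minus endosperm, adjusted p 0.00145). Like CHR23, INO80 was lower in whole seed, at 277 ± 18.9, than in the compartment mean (-2.26 ± 0.32, adjusted p 1.19e-05). RAD5 and ETL1 (synonym CHR19) did not pass among compartments (adjusted p 0.894 and 0.365).

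Of 22 subunits listed for remodelling complexes 9 were measured, and 6 differed among compartments, beside 54.1% of all probe sets. Of these 9, the loci AT3G01890, AT5G67630, AT3G49830 and AT3G43240 carry no symbol in the annotation. SWI3A, a core SWI/SNF subunit, was 1391 ± 661 in chalazal endosperm (n = 3), 1090 ± 436 in peripheral endosperm and 228 ± 55.6 in micropylar endosperm (n = 2 each). SWI3A was higher in chalazal endosperm than in the mean of the other parts (1.34 ± 0.39, adjusted p 0.0109), but its chalazal arrays (961 to 2153) overlapped the peripheral ones (781 to 1398), which those of CHR23 did not. It was lower in micropylar than in peripheral endosperm (-2.07 ± 0.51, adjusted p 0.00651) and lower in whole seed than in the compartment mean (-1.35 ± 0.39, adjusted p 0.0177). Of the 9 subunits, 2 were called higher and 0 lower in chalazal against other endosperm, 0 higher and 2 lower in micropylar against peripheral endosperm, and 3 higher and 1 lower in embryo against endosperm. Of all probe sets 26.3%, 13.4% and 26.4% were called in these comparisons. Their median differences were 0.27, -0.54 and 0.17, beside 0.00, 0.08 and -0.03 over all probe sets. AT3G43240 was 3516 ± 667 in embryo proper (n = 2), with group means of 675 to 1529 elsewhere. Its lead in embryo proper did not pass the lead test (adjusted p 0.0544), nor did limma's comparison with suspensor (0.0574).

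Of 11 listed genes of DNA methylation and demethylation 1 was measured, DME, the glycosylase that removes methylated cytosine, known for its work in the central cell. All 3 DME probe sets were lower in chalazal than in other endosperm, with differences of -1.92 ± 0.42, -3.16 ± 0.38 and -2.52 ± 0.44 (adjusted p 0.000885, 2.17e-07 and 5.55e-05). This comparison called 26.3% of all probe sets, and the 3 DME probe sets read 1 gene on shared arrays. In chalazal endosperm 1 of the 3 probe sets exceeded background, on 1 array. None of 8 genes of Polycomb repressive complex 2, which methylates histone H3, was measured under a name of its own. Both measured histone chaperones of 12 listed differed among compartments, beside 54.1% of all probe sets. ASF1A was higher in chalazal than in other endosperm (1.68 ± 0.39, adjusted p 0.00158), and ASF1B was higher in embryo proper than in suspensor (2.25 ± 0.64, adjusted p 0.0181).

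Of 16 genes of DNA replication and cell division 4 were measured, and all 4 differed among compartments, beside 54.1% of all probe sets. Of the 4, 3 were higher in the embryo than in the seed coat, the Aurora kinases AUR1, AUR2 and AUR3, which act in mitosis, beside 23.7% of all probe sets. Their level stands beside the CHR genes that were also higher there, CHR17, CHR23 and CHR24, and its part in those results was not tested. In micropylar against peripheral endosperm 2 of the 4 were lower, AUR1 and AUR2, as were CHR23 and CHR42, beside 13.4% of all probe sets called. In chalazal against other endosperm 0 of the 4 were called, beside 26.3% of all probe sets. CHR23 was highest in chalazal endosperm, and the part of cell division in that level was not tested.

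**Figure D4:**
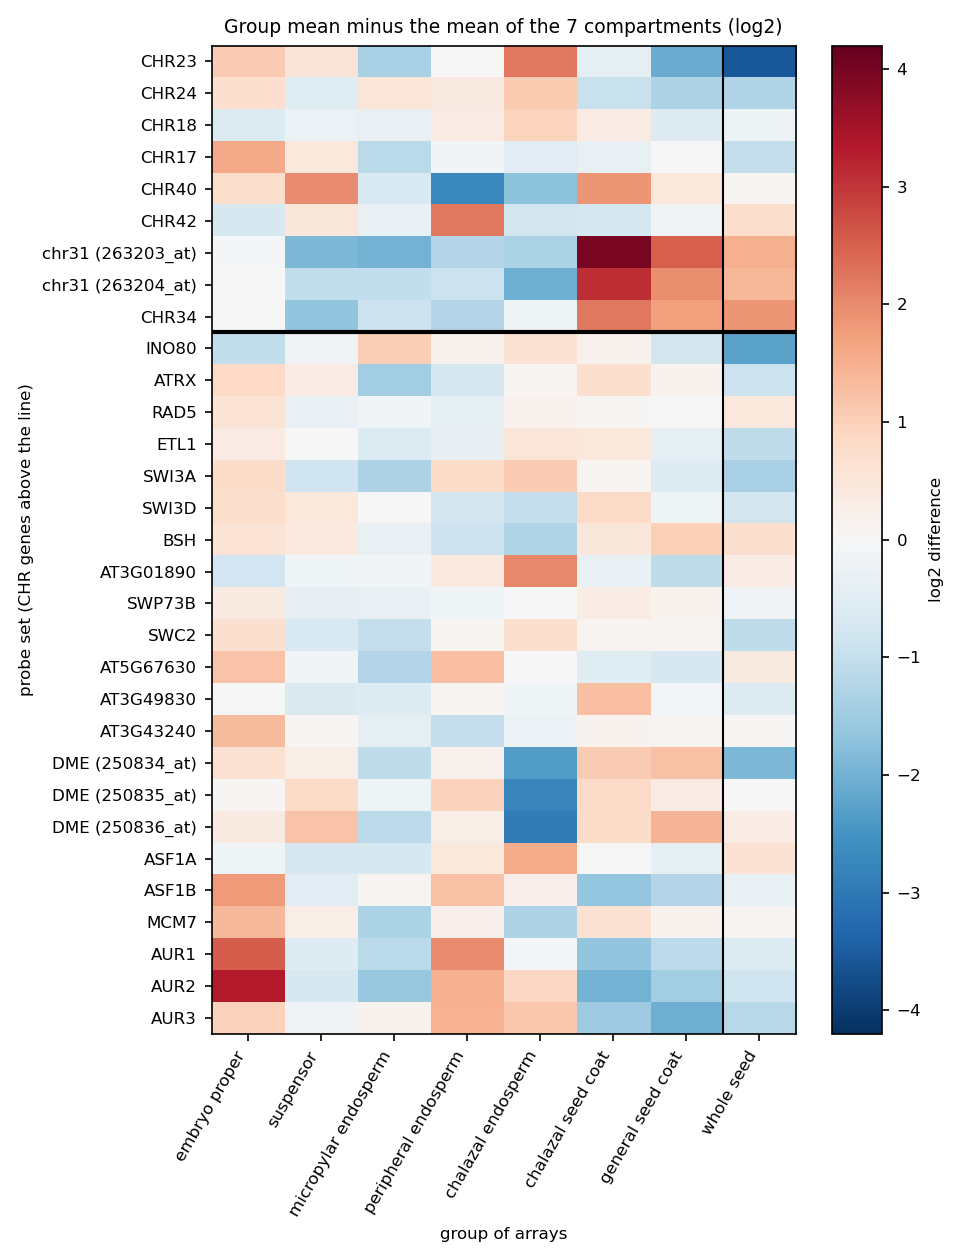
Group mean minus the mean of the 7 compartments, on the log2 scale, for the CHR probe sets (above the black line) and for the other genes of the listed machinery (below it), with whole seed in the last column. CHR23 is red (higher) in chalazal endosperm and blue (lower) in whole seed, both chr31 probe sets are red in both seed coat parts, and the DME probe sets are blue in chalazal endosperm.

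The genes whose 7 compartment means ran closest to each CHR gene were ranked by Pearson's r, as a description over 7 points from the same arrays. The search covered 9346 probe sets that name 1 gene and exceeded background on every array of at least 1 compartment. The top r of so many is high by selection, and CHR18, with no call among compartments, also reached 0.976. For CHR17 the closest genes were ASPGA1 (0.983), AT3G05570 (0.982) and AT2G45720 (0.977). For CHR23 the closest 3 reached 0.952 (AT1G24440), 0.944 (AT4G21110) and 0.935 (AT3G12640), the lowest among the CHR genes. None of the 3 closest to any CHR gene was another member of the set.

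For chr31 the closest were AT3G61820, AT4G13000 and AT5G66440 (0.991 to 0.988) by 263203_at, and AT1G22610, AT2G21520 and AT1G76580 (0.994 to 0.983) by 263204_at, so the 2 probe sets shared none. For CHR34 they were AT1G48090 (0.992), the clock gene TIC (0.988) and AT4G07530 (0.987). For CHR40 they were AT5G55860 (0.988), AT3G50430 (0.982) and AT4G12070 (0.981), and for CHR42 AT1G21500 (0.967), AT1G12800 (0.959) and AT3G15690 (0.952). For CHR24 they were AT1G30820 (0.979), AT2G20280 (0.978) and AT3G57020 (0.963), and for CHR18, whose means did not differ with a call, AT5G48655 (0.976), AT1G80040 (0.959) and AT2G42490 (0.959).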

How the data were processed

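Per the labels' protocols, amplified RNA of laser-captured seed compartments was hybridised to ATH1 arrays. The authors deposited 1 table of intensity values on a linear scale, made with GCOS per the submitters' processing notes. Which version and algorithm it used was not given in the sources used here. The mean of each array without its top and bottom 2% lay between 500.042 and 500.072, so the arrays had been scaled, and no further normalization was applied. Scaling to a common mean makes levels relative to the other RNA of the same capture.

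Of 22810 probe sets, 64 controls were left out. Log2 of intensity plus 31 (the typical array median divided by 4) was fitted in limma 3.58.1 (R 4.3.3), with 1 mean per group over all 17 arrays, 9 residual degrees of freedom, an intensity trend and two-sided p-values, adjusted over the 22746 probe sets by Benjamini-Hochberg. The offset understates the change of dim genes. Tissue comparisons used means over compartments. The lead test took the largest of 6 one-sided p-values, for the compartment of highest mean on the same arrays. For "at least" folds, an array not above its background limit was set to the higher of limit and value.

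Probe names came from an annotation table, in which 13513 probe sets name 1 gene, 503 several, and 8730 are unnamed here. Of the 13513, 13436 matched RefSeq, including the 9 members. All members were named, with the 3 genes closest to each over compartment means and up to 4 genes of each list by range of means. Members, lists and the background limit were chosen with earlier results of these data known. Alternatives were no offset, a 4-fold offset (124), array weights, quantile normalization, a filter on dim probe sets, a common 75th percentile, only the arrays of a comparison, the replicate number as a block and each array left out. In groups of 2 arrays both arrays got the same weight, so the weights cannot tell a poor array from its partner there. Same-numbered arrays deviated together at r between -0.0933 and 0.0920 over 28 pairs of groups, so the numbers were not used to pair samples. Whether arrays shared a capture or batch in another order was not tested. The steps were tested on simulated data.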

Additional observations from a re-analysis of the deposited data

How the results depend on the processing

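The 37 called results of CHR probe sets were differences, leads and, for 8 of them, ranges of the compartment means. Recomputed 914 times over all alternatives, 825 values kept the call and any direction, 89 lost the call and 0 reversed. Where the array left out lay outside a comparison, the difference itself could not change, only its p-value. The 825 are thus not independent checks. A range has no direction, so the values of the 8 ranges could not reverse. Of the counts of CHR probe sets called, that for embryo proper against suspensor (1) became 0 with 4 times the offset and 2 with a common 75th percentile, array weights or the replicate block, and 0 to 2 with an array left out. The count for micropylar against peripheral endosperm (3) became 0 with only the arrays of the comparison and 0 to 3 with an array left out. That for chalazal against general seed coat (1) became 2 with 4 times the offset, 4 with only the arrays of the comparison, and 0 to 1 with an array left out. That for whole seed (5) became 1 to 5 with an array left out. The count of leads (3) became 0 with no offset, 5 with 4 times the offset, 1 with quantile normalization, 1 with the replicate block and 0 to 3 with an array left out. With the replicate block the leads of CHR23 (adjusted p 0.0633) and CHR42 (0.0528) were lost. The replicate block moved no other count of CHR probe sets by over 1.5 times. The causes were not tested.

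Over all probe sets, 2980 calls for embryo proper against suspensor fell to between 1578 and 1897 without any 1 of their 4 arrays. The 3045 for micropylar against peripheral endosperm fell to 1480 with only those arrays, 1866 without micropylar replicate 1 and 1807 without peripheral replicate 2. The 1587 for chalazal against general seed coat became 835 with no offset, 2606 with array weights and 787 to 883 without any 1 of their 4 arrays. The 2959 for whole seed became 4817 with array weights, and 988 and 1242 without its replicates 1 and 2. The 2496 leads became 959 with no offset and 3904 with 4 times the offset. A common 75th percentile moved the median of all probe sets for endosperm minus seed coat from -0.06 to 0.32 and the share of calls higher from 37.1% to 59.3% (48.2% with quantile normalization). For embryo minus endosperm that share moved from 58.5% to 44.2%, for chalazal against other endosperm from 43.0% to 54.4%, for embryo minus seed coat from 42.7% to 53.1% and for whole seed from 69.6% to 56.0%. No called CHR difference that has a direction reversed under these scalings. The calls in whole seed were lost for chr31 263203_at with 4 times the offset, quantile normalization or a common 75th percentile (adjusted p 0.057 to 0.108), and for 263204_at with no offset or either of these scalings (0.104 to 0.129).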
